A study of Homo sapiens with 12 samples.

Results

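The nuclear genes of the oxidative phosphorylation complexes were examined by RNA sequencing of HEK293T cells, a human embryonic kidney line. Members were the symbols of the count table that name subunits of complexes I to V by their standard stems (NDUF, SDH, UQCR, COX and ATP5), with a mean of at least 1 CPM, the count scaled to library size, over the 12 libraries. The stems matched 86 of 23615 symbols and 78 passed the limit: 37 in complex I, 4 in complex II, 8 in complex III, 13 in complex IV and 16 in complex V. NDUFA4 was counted with complex IV, where its protein works, and COX7A2L and ATP5S were kept under the stem of their names although the first is a supercomplex assembly factor and the second a coupling factor outside the core enzyme. The 8 symbols below the limit were ATP5EP2, ATP5L2, COX4I2, COX6A2, COX7A1, COX7B2, COX8C and NDUFA4L2. NDUFA4L2 lay just outside with a mean of 0.959 CPM and COX6B2 just inside with 1.65 CPM.

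One line carried a short hairpin RNA against HuR, the RNA-binding protein encoded by ELAVL1 (shHuR), and the other a control hairpin (shControl). A lentivirus carried each hairpin into the cells, which were then selected with puromycin, so every library came from cells that express a hairpin. Each line rests on 1 hairpin, and the effect of the hairpin cannot be told apart from other differences between the lines. Cells of each line were left untreated, or given 25 µM HNE(alkyne), an alkyne-tagged form of the lipid peroxidation product 4-hydroxynonenal, or 225 µM H2O2, each for 18 h. There were 2 libraries for each of the 6 groups, which the submitters call biological replicates. Mitochondrially encoded subunits were not analysed here.

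Complexes I and II pass electrons from NADH and succinate to ubiquinone, complex III passes them on to cytochrome c, and complex IV reduces oxygen. Complexes I, III and IV pump protons across the inner mitochondrial membrane, and complex V, the ATP synthase, uses the proton gradient to make ATP. All subunits of complex II and most subunits of the others are encoded in the nucleus, and their genes are known targets of the transcription factors NRF1, GABP (NRF2) and YY1 and of the coactivator PGC-1α.

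Total counts were 24855946 to 29907256 per library. ELAVL1, the target of the hairpin, was at 86.0 to 99.4 CPM in the 6 shControl libraries and at 69.3 to 74.5 CPM in the 6 shHuR libraries, a fall of 0.38 on the log2 scale (exact 2-sided permutation test over 924 splits, p = 0.00216). Among the genes expected in this line, CDH2 (110 to 134 CPM) and VIM (345 to 521 CPM) were present, whereas the kidney factors PAX8 (0 to 0.147 CPM) and PAX2 (0.144 to 0.491 CPM) were near 0. Of 13 markers of blood, fibroblast, endothelial, liver and muscle cells, LYZ (3.79 to 7.2 CPM), COL1A1 (2.17 to 4.86 CPM) and CD68 (0.966 to 2.21 CPM) were detected above 1 CPM and the others, PTPRC, PECAM1, ALB and CKM among them, did not exceed 0.367 CPM. The second shControl library with HNE stood apart for the members: their median deviation from each gene's mean log2(CPM + 0.5) was 0.18 there, against a range of -0.13 to 0.15 in the other 11 libraries, and results that rest on it are given with and without it.

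The members differed widely in level. On the deposited FPKM scale, which accounts for gene length, the median member had a mean of 102 FPKM in complex I, 86.8 FPKM in complex II, 106 FPKM in complex III, 280 FPKM in complex IV and 194 FPKM in complex V. COX7C, a small subunit of complex IV, was the highest member at 1100 FPKM, followed by UQCRH, the hinge protein of complex III, at 803 FPKM. Within complex I the levels ran from 21.3 FPKM for NDUFA10 to 462 FPKM for NDUFA1, and within complex II from 22.7 FPKM for the membrane anchor SDHC to 124 FPKM for the iron-sulfur subunit SDHB. Complex V ran from 11.4 FPKM for ATP5S to 578 FPKM for ATP5I, subunit e of the membrane part. COX6B2, the testis isoform of COX6B, was the lowest member at 1.11 FPKM.

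**Figure D1:**
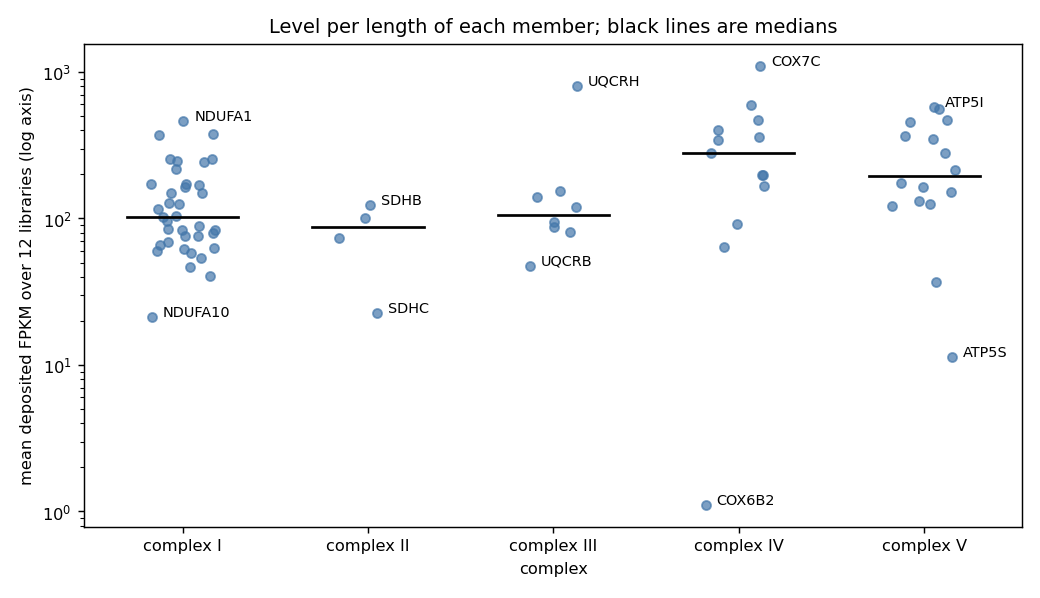
Mean deposited FPKM over 12 libraries (log axis) for each of the 78 members, by complex, with the complex median as a black line and the highest and lowest member of each complex named. The complex IV and V medians (280 and 194 FPKM) lie above those of complexes I, II and III (102, 86.8 and 106 FPKM).

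Isoforms known from single tissues were at or near 0. COX4I1 was at 199.7 to 286 CPM, whereas its lung-type paralogue COX4I2 had 0 counts in all 12 libraries, as had the muscle isoform COX6A2 and the testis isoform COX7B2. A count of 0 allows up to 3 counts per library, from counting error alone. The muscle isoform COX7A1 had 90 counts and NDUFA4L2 had 313 counts summed over the 12 libraries. In bulk RNA, fewer cells with a transcript and less of it per cell cannot be told apart.

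Between the lines, ATP5G1 was the member with the largest difference, and changes among the other members were small and went both ways. Averaged over the 3 treatments, 19 of 78 members (24.4%) passed the test (edgeR's quasi-likelihood test, adjusted p under 0.05), beside 29.9% of the 16005 genes tested. Of these, 13 members (16.7%) were higher in shHuR, beside 14.1% of all genes, and 6 (7.69%) were lower, beside 15.9% of all genes. The median log2 fold change was 0.01 for the members and -0.002 for all genes, and its median size without sign was 0.08 for the members and 0.15 for all genes. The sign of the members' median was not stable: it was 0.07 without the second shControl library with HNE, -0.01 without the first untreated shHuR library and -0.03 with offsets for GC content and gene length. Calls fell in every complex, with 10 of 37 members in complex I, 1 of 4 in complex II, 2 of 8 in complex III, 2 of 13 in complex IV and 4 of 16 in complex V. All 78 members had enough counts to be tested.

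The count and the split depended on the processing. With offsets for GC content and gene length, an alternative chosen after seeing the data, 7 members were higher and 12 lower, beside 12.8% of all genes called higher and 18.3% called lower. Without the second shControl library with HNE the count was 29 (31.9% of all genes), and without the first untreated shControl library it was 12 (24.9% of all genes). Of the 19 called members, 9 kept the call under all 22 alternatives: ATP5G1, ATP5J and ATP5F1 of complex V, NDUFA8, NDUFA9, NDUFA12 and NDUFB5 of complex I, SDHC and COX7A2L. The other 10 lost it in at least 1 alternative: COX8A and UQCR10 in 1 each, and ATP5J2, NDUFA2, NDUFA11, NDUFB4, NDUFB7, NDUFS1, NDUFV1 and UQCRC2 in 5 to 13. Without the second shControl library with HNE, NDUFB4 alone among the 19 lost the call (0.14, adjusted p = 0.0788).

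**Figure D2:**
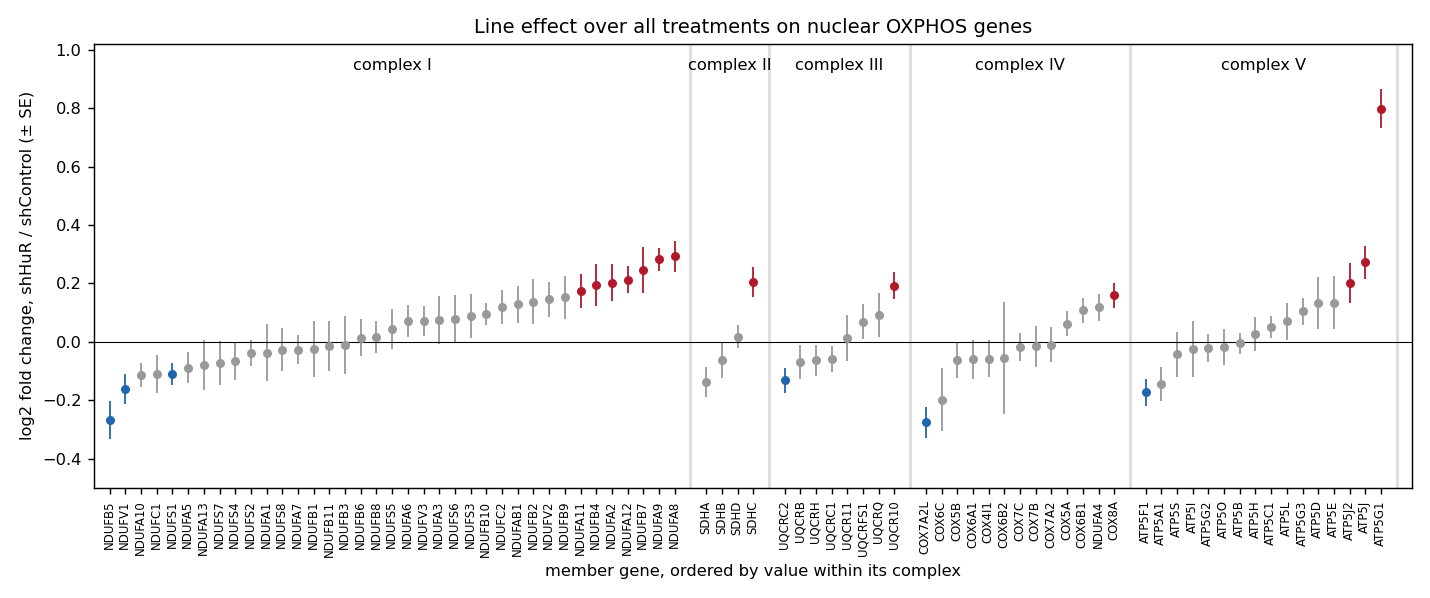
Log2 fold change of shHuR over shControl, averaged over the treatments (points, bars ± SE), for the 78 members in order within each complex. Red points are the 13 members called higher, blue points the 6 called lower and grey points the others; ATP5G1 stands apart at 0.80, and the next members, NDUFA8 and NDUFA9, lie at 0.29 and 0.28.

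ATP5G1 encodes subunit c of the ATP synthase, the protein that forms the rotating ring in the membrane. The shControl libraries held 38.3 and 42.9 CPM untreated, 37.4 and 49.4 CPM after HNE, and 46.0 and 41.3 CPM after H2O2. The shHuR libraries held 80.8 and 76.4 CPM untreated, 70.6 and 67.2 CPM after HNE, and 76.6 and 72.9 CPM after H2O2. Every shHuR library lay above every shControl library, and the lowest shHuR library was above the highest shControl library by more than the spread within either line. This is a 1.74-fold difference, or 0.80 on the log2 scale (SE 0.0661, adjusted p = 1.69e-07, edgeR's quasi-likelihood test). Without the second shControl library with HNE it was 0.87 (adjusted p = 1.49e-09). ATP5G1 was called within each treatment, at 0.95 in untreated cells, 0.67 with HNE and 0.78 with H2O2.

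Its paralogues ATP5G2 and ATP5G3 encode the same mature protein with other targeting sequences, and neither was called. ATP5G2 ranged from 143 to 167 CPM (median 149) in shControl and from 136 to 158 CPM (median 149) in shHuR, and the log2 fold change was -0.02. ATP5G3 ranged from 283 to 326 CPM (median 309) in shControl and from 316 to 359 CPM (median 327) in shHuR, and the log2 fold change was 0.10 with an adjusted p of 0.0918 by edgeR's quasi-likelihood test. The lines overlapped for both genes. On the length-scaled FPKM values ATP5G1 made up 24.8% ± 1.3 (SD, n = 6) of the summed subunit c transcripts in shControl and 36.1% ± 1.44 in shHuR. The share of ATP5G2 was 47.9% ± 1.36 and 39.5% ± 1.34, and that of ATP5G3 was 27.3% ± 0.961 and 24.4% ± 0.883. The sum of the 3 genes was 446 ± 28.3 FPKM in shControl and 536 ± 24 FPKM in shHuR. The shares and the sum depended on the scale. In CPM the shares in shControl and shHuR were 8.51% and 13.4% for ATP5G1, 30.2% and 26.9% for ATP5G2, and 61.3% and 59.7% for ATP5G3. The sum was 500 ± 27.2 CPM in shControl and 552 ± 23.3 CPM in shHuR.

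**Figure D3:**
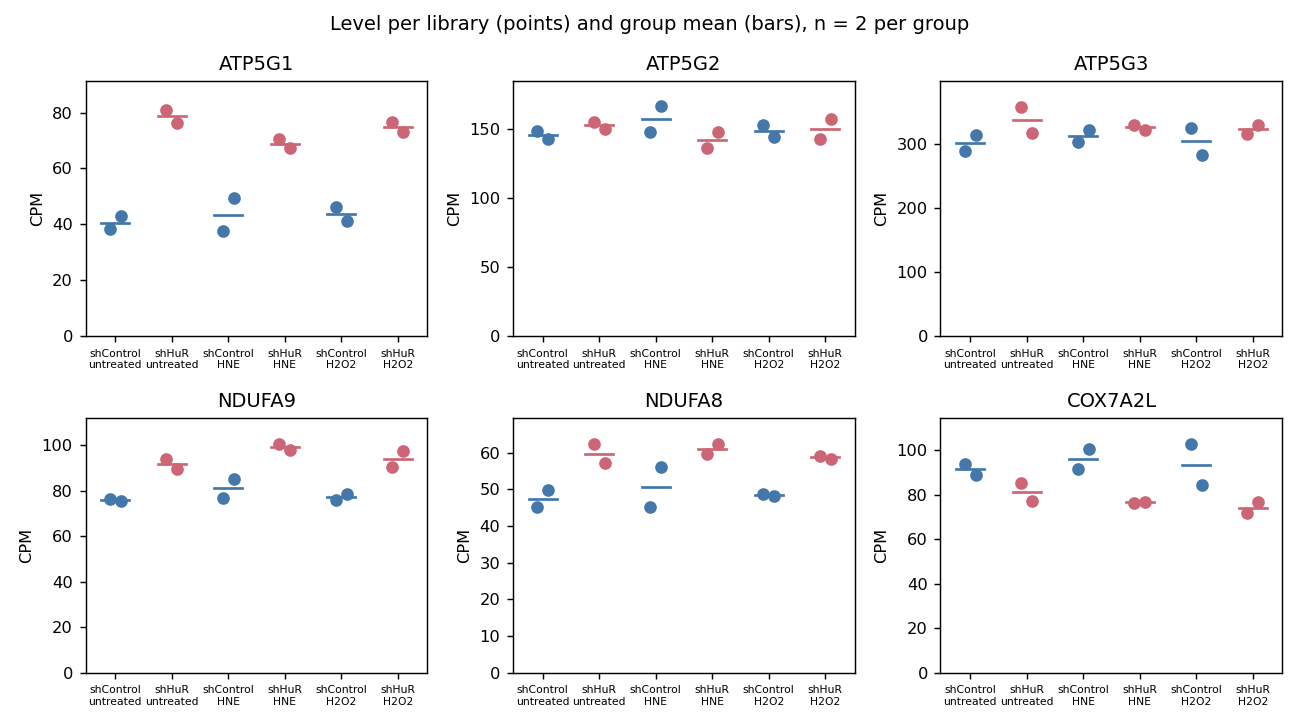
CPM in each library (points) with the group mean (bars, n = 2) for the subunit c genes ATP5G1, ATP5G2 and ATP5G3 and for NDUFA9, NDUFA8 and COX7A2L, with shControl in blue and shHuR in red. ATP5G1 is at 37.4 to 49.4 CPM in shControl and 67.2 to 80.8 CPM in shHuR, while the lines overlap for ATP5G2 and ATP5G3.

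The 120 bases before the single ATP5G1 start listed by RefSeq (symbol ATP5MC1, GRCh38.p14, plus strand, chr17:48892667-48892786) are shown because this member moved most. Capitals mark the letters CCAAT and TGACGTCA, the boxes known for NF-Y and for CREB-type factors; the second motif was added to the search after this promoter had been seen.
ATP5G1: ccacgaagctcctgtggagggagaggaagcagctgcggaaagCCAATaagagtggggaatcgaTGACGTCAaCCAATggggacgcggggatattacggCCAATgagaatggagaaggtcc
TGACGTCA begins 57 bases before the start, and CCAAT occurs 3 times in this stretch and once more 181 bases before the start. The NRF1, GABP and YY1 motifs searched were not among the 300 bases listed for ATP5G1. Its tested neighbours on the chromosome, CALCOCO2 and UBE2Z on either side, had log2 fold changes of -0.11 and -0.02 and were not called. The next tested genes beyond them, TTLL6 (0.76, SE 0.471) and SNF8 (0.12, SE 0.0702), were not called either. No stretch of 75 bases of its transcript occurs in another annotated gene.

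Of the other complex V members, ATP5J and ATP5J2 were higher in shHuR and ATP5F1 was lower. ATP5J, factor 6 of the peripheral stalk, ranged from 46.9 to 63.9 CPM (median 60.6) in shControl and from 68.4 to 74.8 CPM (median 70.8) in shHuR, without overlap. Its log2 fold change was 0.27 (SE 0.0558, adjusted p = 0.0014). The lowest value, 46.9 CPM, was that of the second shControl library with HNE, and leaving it out gave 0.22 on the log2 scale (adjusted p = 0.000407, edgeR's quasi-likelihood test).
ATP5J2, subunit f of the membrane part, ranged from 94.0 to 140 CPM in shControl and from 127 to 162 CPM in shHuR. The lines overlapped, and the log2 fold change was 0.20 (adjusted p = 0.033), or 0.13 (adjusted p = 0.036) without the second shControl library with HNE, which held the lowest value. Its deposited counts were partly not whole numbers and 29.4% of its 75-base stretches occur in other annotated genes, so its level is uncertain. ATP5F1, subunit b of the peripheral stalk, ranged from 307 to 362 CPM (median 341) in shControl and from 286 to 320 CPM (median 298) in shHuR, with overlap and a log2 fold change of -0.17 (adjusted p = 0.00758). The catalytic head subunits ATP5A1 (-0.14, adjusted p = 0.0736) and ATP5B (-0.01, adjusted p = 0.926) were not called by edgeR's quasi-likelihood test.

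In complex I, 7 members were higher in shHuR and 3 were lower. NDUFA9, an accessory subunit near the quinone site, ranged from 75.4 to 85.1 CPM (median 76.6) in shControl and from 89.5 to 101 CPM (median 95.6) in shHuR. NDUFA8, an accessory subunit on the intermembrane side, ranged from 45.1 to 56.0 CPM (median 48.4) in shControl and from 57.1 to 62.4 CPM (median 59.4) in shHuR. Neither gene's lines overlapped. The log2 fold changes were 0.28 for NDUFA9 (SE 0.0403, adjusted p = 5.68e-05) and 0.29 for NDUFA8 (SE 0.0528, adjusted p = 0.000464). NDUFA9 was called within each of the 3 treatments, at 0.27, 0.29 and 0.28 for untreated cells, HNE and H2O2. Of its 75-base stretches 12.7% occur in other annotated genes, and of the tested neighbours GALNT8 (-1.93, adjusted p = 1.81e-05), KCNA6 (-1.71, adjusted p = 0.000485) and AKAP3 (-0.41, adjusted p = 0.0393) were lower in shHuR. Reads of overlapping genes may be counted with either, and their part in the result was not tested.

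The other complex I members called higher were the accessory subunits NDUFB7 (0.25), NDUFA12 (0.21), NDUFA2 (0.20), NDUFB4 (0.19) and NDUFA11 (0.17). NDUFA12 ranged from 56.0 to 66.0 CPM in shControl and from 65.9 to 75.6 CPM in shHuR, so that the lines overlapped by the 1 highest shControl library alone. NDUFA11 shares 61.9% of its 75-base stretches with another annotated gene, and its level is uncertain.
NDUFB5, an accessory subunit of the membrane arm, was the complex I member that fell most, from 46.4 to 62.8 CPM (median 54.6) in shControl to 41.1 to 51.0 CPM (median 44.9) in shHuR. Its lines overlapped, and its log2 fold change was -0.27 (SE 0.0651, adjusted p = 0.00467). The electron-entry subunits NDUFV1, which binds NADH and flavin, and NDUFS1, which carries iron-sulfur clusters, were lower by smaller amounts, at -0.16 (adjusted p = 0.027) and -0.11 (adjusted p = 0.035). NDUFV1 ranged from 139 to 169 CPM in shControl and from 122 to 156 CPM in shHuR, and 11.2% of its 75-base stretches occur in another annotated gene. NDUFS1 ranged from 204 to 225 CPM and from 185 to 215 CPM, and the lines overlapped for both genes.

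In complex II, SDHC was higher in shHuR and the other subunits were not called. SDHC, which anchors the enzyme in the membrane, ranged from 51.8 to 63.0 CPM (median 56.5) in shControl and from 62.5 to 68.5 CPM (median 65.6) in shHuR, with 1 shControl library reaching into the shHuR range. Its log2 fold change was 0.21 (SE 0.0515, adjusted p = 0.00591). SDHA, the flavin subunit that oxidises succinate, was at -0.14 with an adjusted p of 0.0526, and SDHB was at -0.06. In complex III the small subunit UQCR10 was higher, at 78.8 to 86.3 CPM in shControl and 84.8 to 102 CPM in shHuR, and the log2 fold change was 0.19 (adjusted p = 0.00422). UQCRC2, a core protein, was lower, at 222 to 261 CPM in shControl and 211 to 233 CPM in shHuR, and the log2 fold change was -0.13 (adjusted p = 0.0279). The lines overlapped for both. The Rieske protein UQCRFS1, which carries the iron-sulfur cluster of complex III, was not called, at 81.3 to 109 CPM in shControl and 90.6 to 99.6 CPM in shHuR.

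In complex IV, COX8A was higher and COX7A2L lower. COX7A2L, which joins complexes III and IV into supercomplexes, ranged from 84.3 to 103 CPM (median 92.7) in shControl and from 71.8 to 85.3 CPM (median 76.8) in shHuR. The highest shHuR library lay just above the lowest shControl library. Its log2 fold change was -0.28 (SE 0.0532, adjusted p = 0.000852), and no 75-base stretch of it occurs in another annotated gene. COX7A2, its paralogue in the enzyme itself, was at -0.01 and not called. COX8A, a small structural subunit, ranged from 91.4 to 104 CPM in shControl and from 105 to 117 CPM in shHuR without overlap. Its log2 fold change was 0.16 (adjusted p = 0.00943, edgeR's quasi-likelihood test). With offsets for GC content and gene length it was at 0.0048 and no longer called (adjusted p = 0.949, same test). Of the 75-base stretches of COX8A 23.6% occur in another annotated gene, so its level is uncertain. COX4I1, COX6A1, COX6B1, COX6B2 and NDUFA4 were not called. COX6C was the most variable abundant member of complex IV, at 200.5 CPM in the second shControl library with HNE and 98.3 to 128 CPM in the other 11 libraries.

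Counting only members whose libraries did not overlap at all between the lines, 5 of 78 (6.41%) had all 6 shHuR libraries above all 6 shControl libraries, beside 5.25% of all genes: ATP5G1, NDUFA8, NDUFA9, ATP5J and COX8A. No member had all shHuR libraries below. Over both directions the share of all genes without overlap was 12.1%.

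Within single treatments fewer members were called. In untreated cells 8 of 78 members (10.3%) were called, beside 7.98% of all genes, and all 8 were higher in shHuR, beside 3.5% of all genes called higher and 4.48% called lower. They were ATP5G1 (0.95), ATP5D (0.49), NDUFB7 (0.44), NDUFA2 (0.43), UQCR10 (0.34), NDUFC2 (0.31), COX8A (0.27) and NDUFA9 (0.27). ATP5D, the delta subunit of the central stalk, was at 19.3 and 21.2 CPM in untreated shControl and 26.5 and 30.3 CPM in untreated shHuR (adjusted p = 0.0132), and at 20.8 and 22.98 CPM against 18.9 and 19.5 CPM with HNE. The untreated groups did not overlap, and with HNE both shHuR libraries lay below both shControl libraries. The difference of ATP5D with HNE was not called (adjusted p = 0.324, edgeR's quasi-likelihood test). With only 2 libraries per group the count fell to 1 without the first or the second untreated shControl library, beside 1.63% and 1.48% of all genes. It fell to 3 and 4 without the first and the second untreated shHuR library, beside 3.89% and 1.55% of all genes. It also fell without any 1 of the shHuR libraries with HNE or H2O2. Those libraries enter this comparison through the shared estimate of the spread, the filter on low counts and the scaling. The share over all genes fell in each of these fits too.

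With HNE, 5 members (6.41%) were called, beside 8.27% of all genes. ATP5G1 (0.67), ATP5J (0.42) and NDUFA9 (0.29) were higher, 3.85% beside 3.24% of all genes, and COX7A2L (-0.33) and NDUFV1 (-0.31) were lower, 2.56% beside 5.04% of all genes. NDUFV1 was at 139 and 166 CPM in shControl and at 122 and 123 CPM in shHuR under HNE, where the groups did not overlap, and at 156 and 157 CPM against 156 and 153 CPM in untreated cells. With the compared groups alone 0 members and 1.33% of all genes were called by edgeR's quasi-likelihood test, so each of these calls was lost. Without the second shControl library with HNE, ATP5G1 (0.88), ATP5J (0.28) and NDUFA9 (0.37) stayed called, whereas COX7A2L (-0.26, adjusted p = 0.148) and NDUFV1 (-0.18, adjusted p = 0.144) did not. The HNE count was 19 without the first shControl library with HNE (11.5% of all genes), 6 without the second (8.1%), 1 without either shHuR library with HNE (1.63% and 0.999%), and 3 without either untreated shControl library (6.07% in both fits). The median member was at -0.06 with all libraries, at -0.19 without the first shControl library with HNE and at 0.07 without the second. With H2O2, 3 members (3.85%) were called, beside 7.19% of all genes: ATP5G1 (0.78) and NDUFA9 (0.28) were higher, 2.56% beside 2.52% of all genes, and COX7A2L (-0.33) was lower, 1.28% beside 4.67% of all genes. The H2O2 count ranged from 1 to 6 with single libraries left out; it was 6 without either shControl library with HNE (11.3% and 11.2% of all genes). It was 1 without the first shControl library with H2O2, either untreated shControl library, or any 1 of the 4 treated shHuR libraries, beside 1.76% to 5.12% of all genes.

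In all, 11 members were called in at least 1 treatment, and 9 of these 11 were also among the 19 called over all treatments, the exceptions being ATP5D and NDUFC2. Only ATP5G1 and NDUFA9 were called in all 3 treatments. These counts across treatments were made for the members alone, so they cannot be set beside a share over all genes. COX7A2L was called in 2 treatments and stood at -0.17 in untreated cells. Each of the 19 had the same sign in 3 of 3 treatments, which describes the libraries that also gave the calls.

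**Figure D4:**
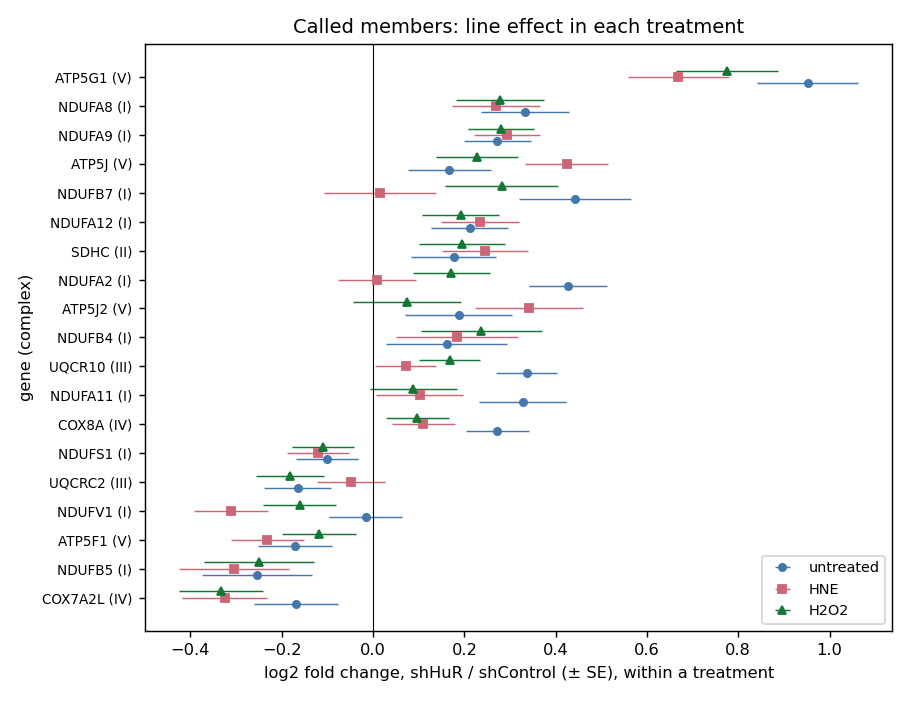
Log2 fold change of shHuR over shControl (± SE) within untreated, HNE and H2O2 cells for the 19 members called over all treatments. ATP5G1 lies between 0.67 and 0.95, and NDUFA9 between 0.27 and 0.29, while NDUFB7 and NDUFA2 lie near 0 with HNE and above 0.4 in untreated cells.

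No member passed the test for a response to either compound. With HNE over both lines, edgeR's quasi-likelihood test called 0 of 78 members, beside 0.247% of 15780 genes; DESeq2 and limma also called 0 members, and 5 members had an unadjusted p under 0.05 (ATP5J2, ATP5S, NDUFA10 and NDUFV1 lower, NDUFC2 higher). The largest of these differences was that of ATP5S at -0.29 (adjusted p = 0.278 by edgeR's quasi-likelihood test). Over all 15780 genes, 1796 had an unadjusted p no larger than that of ATP5J2, the highest of the 5 members. With H2O2 over both lines edgeR's quasi-likelihood test called 0 members, beside 0% of 15801 genes, and DESeq2 and limma called 0 members too. ATP5J2, NDUFAB1 and UQCRH had an unadjusted p under 0.05 by edgeR's test, all lower. Over all 15801 genes, 726 had an unadjusted p no larger than that of NDUFAB1, the highest of these. UQCRH was at 275 and 279 CPM in untreated shControl, 297 and 250 CPM in untreated shHuR, and at 263 and 235 CPM and 215 and 243 CPM with H2O2, a log2 fold change of -0.20 (adjusted p = 0.9). Within each line, both H2O2 values of UQCRH lay below both untreated values. Across the lines the treated and untreated values overlapped, with 263 CPM in a treated shControl library and 250 CPM in an untreated shHuR library. The median member was at 0.02 with HNE and at -0.04 with H2O2. There 61 of 78 members had a negative sign, beside 7935 of 15801 genes. So had 71 of 81 cytosolic and 40 of 76 mitochondrial ribosomal protein genes, all measured in the same libraries. With single libraries left out the HNE median ran from -0.04 to 0.06 and so changed sign, and the H2O2 median from -0.09 to -0.02. The H2O2 and HNE comparisons share the 4 untreated libraries.

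Differences between the lines in their response were not called for any member either. For HNE the test of the interaction called 0 of 78 members and 0% of 16005 genes by edgeR's quasi-likelihood test, and 0 members by DESeq2 and limma, with 11 members at an unadjusted p under 0.05, of which 10 were negative. The most negative were ATP5D at -0.68 and the iron-sulfur subunit NDUFS8 at -0.54 (edgeR's quasi-likelihood test, adjusted p = 0.712 for both). Over all 16005 genes, 1036 had an unadjusted p no larger than that of ATP5S, the highest of the 11 members. NDUFS8 was at 47.2 and 48.6 CPM in untreated shControl, 49.4 and 61.6 CPM with HNE, 57.6 and 56.9 CPM in untreated shHuR, and 44.6 and 46.3 CPM with HNE. The values of NDUFS8 were thus higher in shHuR than in shControl before HNE and lower with it, from 2 libraries per group. Neither difference was called (adjusted p = 0.107 untreated and 0.0738 with HNE, edgeR's quasi-likelihood test). NDUFS8 was named for its interaction value, so these libraries are no separate evidence for it. The median member stood at -0.16 beside -0.003 for all genes. It was -0.04 without the second shControl library with HNE and -0.09 without the first untreated shHuR library, and with the first shControl library with HNE left out it was -0.28 and 5 members were called, beside 0.531% of all genes. Without the second shControl library with HNE, ATP5D was at -0.61 and NDUFS8 at -0.38 (adjusted p = 0.648 for both). For H2O2 the interaction called 0 members and 0% of all genes by edgeR's quasi-likelihood test, and 0 members by DESeq2 and limma. ATP5D, NDUFA3, NDUFS8 and UQCRC1 had an unadjusted p under 0.05 by edgeR's test, all negative. Over all 16005 genes, 552 had an unadjusted p no larger than that of NDUFA3, the highest of these. The median member stood at -0.07, and it ranged from -0.16 without the second untreated shHuR library to 0.01 without the first.

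Summed in CPM over its members, no complex differed between the lines by more than 2.36%. Summed in FPKM the differences were larger for complex V (4.29%) and complex I (3.59%). All members together gave 10050 ± 709 CPM in shControl and 10040 ± 492 CPM in shHuR (SD, n = 6). Complex I gave 3044 ± 254 and 3104 ± 152 CPM, complex II 469.8 ± 31.5 and 458.8 ± 16.1 CPM, and complex III 1339 ± 79.3 and 1311 ± 76.1 CPM. Complex IV gave 1694 ± 145 and 1664 ± 96 CPM and complex V 3505 ± 206 and 3503 ± 157 CPM. For every complex the difference between the lines in CPM was smaller than the SD within a line, and no test was run on these sums.

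The median of the members moved from library to library. This median deviation was 0.18 in the second shControl library with HNE and 0.15 in the first untreated shHuR library, and -0.13 in the second shControl library with H2O2. The other replicates of the first 2 groups lay at -0.08 and -0.001. In the library at 0.18 the complexes lay at 0.22 (I), 0.13 (II), 0.17 (III), 0.18 (IV) and 0.12 (V), and the cytosolic ribosomal proteins at 0.23. There 42 of the 78 members had their highest value of the 12 libraries, while 6 had their lowest: ATP5C1, ATP5J, ATP5J2, ATP5S, NDUFB4 and NDUFV2. The mitochondrial ribosomal proteins were at 0.07 there and the proteasome subunits at 0.09. The part of library preparation in these shifts was not tested.

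**Figure D5:**
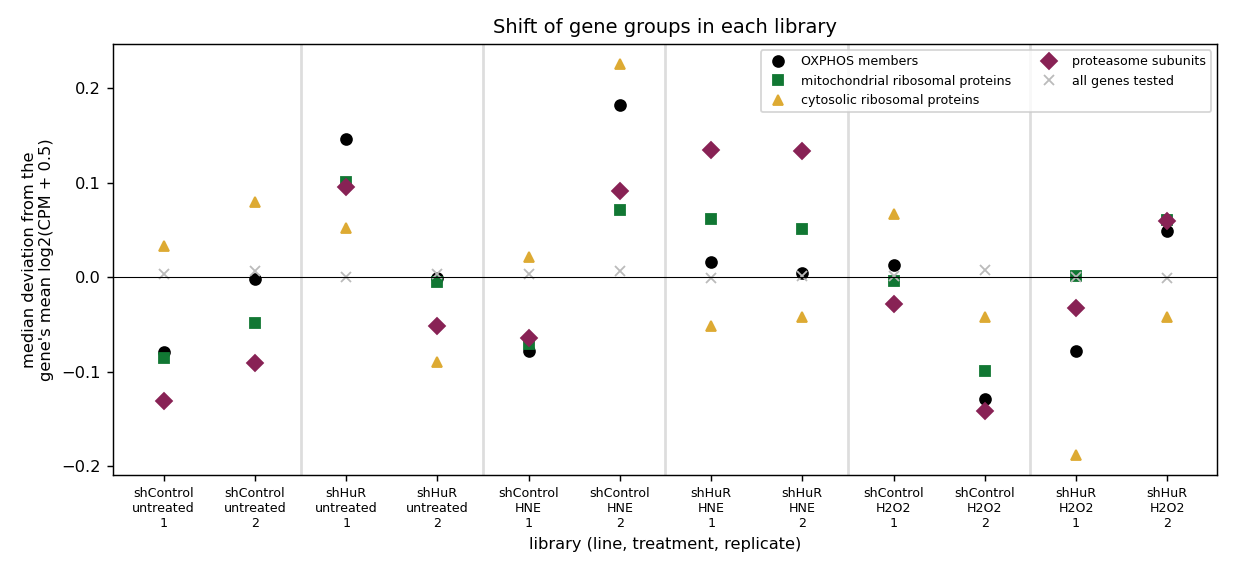
Median deviation from each gene's mean log2(CPM + 0.5) in each of the 12 libraries for the 78 members, mitochondrial and cytosolic ribosomal proteins, proteasome subunits and all genes tested. The members range from -0.13 to 0.18 and replicates of a group can lie far apart, while all genes tested stay near 0.

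The other genes of the pathway also changed in both directions. Of 7 other subunits and carriers tested, 2 were higher and 1 was lower, 42.9% beside 29.9% of all genes. C14orf2, a small subunit of the ATP synthase, was at 0.32 (adjusted p = 0.000531), and CYCS, which encodes cytochrome c, was at 0.15 (adjusted p = 0.0192). UQCRHL, a retrocopy of UQCRH, was at -1.24 (adjusted p = 0.0053) from at most 1.36 CPM, and 19.6% of the 75-base stretches of UQCRH occur in it, so its counts are uncertain. CYC1, cytochrome c1 of complex III, was not called (-0.05, adjusted p = 0.574). Of 44 assembly factors, 6 were higher and 4 lower, 22.7% beside 29.9% of all genes. The called ones were led by COA3 (0.37) of complex IV, NDUFAF3 (0.36) of complex I and TTC19 (-0.33) of complex III.

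Among 18 regulators of mitochondrial gene expression, 4 were higher and 2 lower, 33.3% beside 29.9% of all genes. PPARGC1A, which encodes PGC-1α, ranged from 2.35 to 3.9 CPM (median 2.53) in shControl and from 2.67 to 4.15 CPM (median 3.87) in shHuR, with overlap and a log2 fold change of 0.45 (adjusted p = 0.024). C10orf2, the mitochondrial helicase Twinkle, was at 0.28 (adjusted p = 0.00106), and ESRRA, an orphan receptor that works with PGC-1α, was at -0.29 (adjusted p = 0.00111). NRF1 (-0.06, adjusted p = 0.585) and TFAM (-0.06, adjusted p = 0.381), the mitochondrial transcription factor, were not called by edgeR's quasi-likelihood test. Of 13 enzyme subunits of the citric acid cycle 3 were higher and 1 lower, 30.8% beside 29.9% of all genes. The called ones were led by OGDH (0.41), SUCLG2 (-0.32) and IDH3G (0.20).

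For comparison with large complexes of other kinds, 23 of 76 mitochondrial ribosomal protein genes were higher and 3 lower (34.2% called, median 0.09). Of 81 cytosolic ribosomal protein genes 3 were higher and 32 lower (43.2% called, median -0.13). Of 35 proteasome subunit genes 14 were higher and 0 lower (40% called, median 0.12). Over all genes 14.1% were called higher and 15.9% lower. The median of the members, 0.01, lay between these lists.

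The called members differed in the median length of their transcripts, but single members went the other way. The 13 members called higher had a median transcript of 671 bases with a median 3′ UTR of 183 bases, and the 6 called lower had medians of 2836 and 1134 bases. The 59 members not called had medians of 1098 and 255 bases. Among those called higher, SDHC had the longest transcript of all members (13566 bases, 3′ UTR 12907), and NDUFA9 had 8363 and 7209 bases. NDUFV1, called lower, had a 3′ UTR of 96 bases. An ATTTA, the core of the AU-rich elements to which HuR is known to bind, was present in the 3′ UTR of 3 of the 13 higher members, 5 of the 6 lower and 29 of the 59 others. A longer 3′ UTR holds more such matches by its length alone, and with the length and GC offsets the split between higher and lower turned, as given above. Spearman's rho across the 78 members between the log2 fold change and transcript length was -0.292 and with 3′ UTR length it was -0.106, a description across genes that share the same 12 libraries.

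The promoters of the members often held the motifs of the known regulators. RefSeq's table on GRCh38.p14 (250 bases before to 50 after each listed start) listed 65 of the 78 members, and both strands were searched. A gene was counted if any of its listed starts held the motif. The NRF1 motif CGCATGCG was present in 11 (16.9%), against 4.12% of the 12008 tested genes with a listed promoter and 2.46% of all 27305 genes with one. The GABP motif CCGGAAG was present in 20 (30.8%, against 20.3% and 12.2%) and the YY1 motif AAGATGGCG in 9 (13.8%, against 4.18% and 2.14%). At least 1 of the 3 was present in 33 members (50.8%, against 26.1% and 15.5%): 15 in complex I, 2 in complex II, 4 in complex III, 5 in complex IV and 7 in complex V. TGACGTCA was present in 5 (7.69%, against 3.61% and 2.25%), and CCAAT in 22 (33.8%, against 43% and 39.7%).
Of 11 members called higher that had a listed promoter, 6 held 1 of the first 3 motifs, and of 5 called lower 1 did. A match is a run of letters and not a measured site.

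The windows around 5 of the 11 NRF1 matches show the motif in capitals, in members called higher (ATP5J, NDUFA8 and NDUFB4) and in members not called (ATP5G2 and SDHD), on GRCh38.p14 from RefSeq at chr21:25735158-25735181 (minus strand), chr9:122159767-122159790 (minus), chr3:120596170-120596193 (plus), chr12:53676109-53676132 (minus) and chr11:112086756-112086779 (plus).
ATP5J: tcaaagagCGCATGCGtacagagc
NDUFA8: gccggatgCGCATGCGcaggcgcc
NDUFB4: gcacttcgCGCATGCGcatatcac
ATP5G2: ccgggtcaCGCATGCGctgagcct
SDHD: tgtgtttgCGCATGCGcgacgggt
The motif was thus present in members that were higher in shHuR and in members that were not, and ATP5G1, the member with the largest difference, did not hold it in the listed window.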

How the data were processed

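Total RNA of 12 cultures was depleted of ribosomal RNA and sequenced as strand-specific single-end libraries, per the labels' protocols. The authors deposited estimated counts per symbol (2.25% of values were not whole, in 701 genes) and, in a second table, FPKM values, with 1 column per library in each. The submitters' processing notes name cutadapt 1.8, Bowtie2 2.2, TopHat2 2.1, Cufflinks 2.2, Cuffnorm and Cuffdiff and the build GRCh37/hg19; the annotation and the use of strand in counting are not given in the sources used here, so overlapping and antisense genes cannot be separated.

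Estimated counts were rounded and filtered with filterByExpr (minimum count 10, by group), which kept 16005 genes, and CPM was computed from TMM-scaled library sizes. The line effect was tested with edgeR 4.0.16 (quasi-likelihood test, R 4.3.3) on all 12 libraries with treatment as covariate, the effect within a treatment and the interactions on 6 group means with 6 residual degrees of freedom, and the HNE and H2O2 effects on 8 libraries with line as covariate, all with Benjamini-Hochberg adjustment over all genes tested and a threshold of 0.05. Fold changes are log2 values of shHuR over shControl, or of treated over untreated. Alternatives used DESeq2 1.42.0, limma 3.58.1 on log2(FPKM + pseudocount), which understates the change of low genes, other scalings and filters, a replicate block, GC and length offsets and leaving out each library. The tests were checked on simulated data. The members, the gene lists and the tests were chosen with earlier results of these data known. Every member could be named; values by library went to paralogues, core subunits and the called members that changed most in each complex or were called within a treatment, and of the other lists the 3 called genes that changed most were named with CYC1, CYCS, PPARGC1A, NRF1 and TFAM. The neighbours of ATP5G1 and NDUFA9 and the members named for an unadjusted p, NDUFS8 and UQCRH among them, were chosen after their values were seen. Transcript features were read from GENCODE 29 (GRCh38), where all 78 members were found; the build differs from that of the authors, so no position was carried over. With 24855946 counts or more per library, counting error is small for most members beside the spread between cultures (biological coefficient of variation 8.32%). For genes with few counts, such as COX6B2 (540 counts over the 12 libraries), PPARGC1A and UQCRHL, it is not small.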

Additional observations from a re-analysis of the deposited data

How the results depend on the processing

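Among the results for single genes, 865 alternatives kept the direction and the side of the threshold, 186 lost the call, 24 gained one and 19 changed sign, all of the last for members that were not called. ATP5B (0.0165), ATP5G2 (0.0002) and COX7A2 (0.0115) changed sign with library size alone and COX6B1 (-0.029) with GC and length offsets. With single libraries left out, ATP5B ranged from -0.0192 to 0.017, ATP5G2 from -0.044 to 0.0165, COX4I1 from -0.0954 to 0.0119, COX6A1 from -0.1119 to 0.0132, COX6B2 from -0.1619 to 0.064, COX7A2 from -0.0549 to 0.0381 and SDHB from -0.0893 to 0.0052. Of the 19 called members, 10 lost the call in 1 to 13 of the 22 alternatives. The count of members called over all treatments was 12 to 29 with single libraries left out, beside 23.7% to 31.9% of all genes. The count called higher was 20 without a filter on low counts, beside 2530 of 20857 genes. It was 7 with the offsets, beside 12.8% of all genes, and 8 to 23 with libraries left out, beside 1798 of 16470 genes to 2553 of 16439 genes. The count called lower was 12 with the offsets, beside 18.3% of all genes. It was 3 to 9 with libraries left out, where 23.7% to 31.9% of all genes were called in either direction. In untreated cells the count was 14 without a filter (9.34% of all genes), 5 with limma on log2(FPKM + 1) (8.14%) and 5 on log2(FPKM + 0.1) (8.23%). It was 2 with the offsets (5.94%). With HNE the count was 12 without a filter (9.88% of all genes), 3 with limma on log2(FPKM + 1) (8.46%) and 3 on log2(FPKM + 0.1) (8.52%). It was 2 with limma without a filter (3.43%), 0 with the compared groups alone (1.33%, by edgeR's quasi-likelihood test) and 3 with the offsets (9.04%). With H2O2 the count was 5 without a filter (8.64% of all genes) and 1 with the compared groups alone (5.31%). Counts within treatments with single libraries of the compared groups left out are given above. Without a filter 1 member was called for HNE over both lines (1.63% of all genes), 1 for H2O2 over both lines (0.571%) and 2 for the HNE interaction (0.494%). With libraries left out 0 to 2 members were called for HNE over both lines, beside 0.0186% to 1.04% of all genes. The offsets for counts and genes were chosen after seeing the data and covered 95.2% of tested genes. The cause of these differences was not tested. Where a library was left out, its lone partner was assumed to vary like the other groups.

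The replicate numbers did not pair the samples: over the 15 pairs of groups the differences between replicates correlated at -0.176 to 0.218 across genes, above 0.1 in 3 pairs. With the number as a replicate block 18 members were called over all treatments (29.1% of all genes) by edgeR's quasi-likelihood test. In untreated cells 6 were called (6.61%), with HNE 4 (6.97%) and with H2O2 2 (6.17%). For the compounds and interactions 0 members were called, beside 0.0887% of all genes for HNE over both lines and 0% for the others.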
